A study of Homo sapiens with 12 samples.

Results

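Expression of 10 genes of the integrated stress response (ISR) was followed in a human prostate cancer line treated with covalent stereoprobes or with a splicing inhibitor. They were ATF4, ATF3, DDIT3, TRIB3, CHAC1, SESN2, DDIT4, ASNS, PSAT1 and PHGDH, chosen by name, and all 10 were found among the 18650 coding genes measured. Earlier results of these data were known when the 10 genes were chosen. The cells were 22Rv1 with a gene edit that makes them express C1111S SF3B1, and every group carried this edit, the DMSO group included. SF3B1 is a core subunit of the splicing factor SF3b. One group received the stereoprobe WX-02-23 at 20 µM for 3 h, another the stereoprobe WX-02-43 at 20 µM for 3 h, another pladienolide B (PladB, an SF3b inhibitor) at 10 nM for 3 h, and the last DMSO at 0.1% v/v. All groups then received 4-thiouridine (100 µM) for 1 h, and each had 3 libraries. Whether the 3 libraries of a group came from separate cultures is not stated in the labels, so the p-values cover only the spread seen between these libraries. Nor do the labels say whether the edited line was 1 clone. No unedited cells were analysed here.

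RNA made during the 1 h of labelling carries 4-thiouridine, which reads as C where the genome has T after alkylation (SLAM-seq). Reads showing such a change (T>C reads) stand for newly made RNA, and the share of a gene's reads that are T>C reads is called its labelled share. Counts were taken at transcript 3′ ends. Each gene has 2 kinds of change, 1 in T>C reads relative to all T>C reads, and 1 in all reads. A gene is said to be called where the adjusted p (edgeR, quasi-likelihood, Benjamini-Hochberg over all genes tested) was under 0.05.

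In the ISR, kinases that sense amino acid shortage, misfolded protein, heme deficiency or viral RNA phosphorylate eIF2alpha, which slows translation in general while ATF4 mRNA is translated more. ATF4 is a bZIP transcription factor that binds with partners of the C/EBP family to C/EBP-ATF response elements and turns on genes of amino acid supply, redox balance and, when stress lasts, cell death. Much of the regulation of ATF4 itself is by translation, which RNA counts do not measure.

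The promoters of ASNS, ATF3 and CHAC1 are shown because they were the members whose windows held the core of the C/EBP-ATF element. RefSeq (GRCh38.p14) gave 16 promoter windows for the 10 genes, each with 250 bases before and 50 after a start site. The letters TGATGNAA, searched on both strands and with overlaps between motifs ignored, were found in 3 of the 16 windows, and in 3.62% of all 35116 windows of that length. Capitals mark the match.
ASNS, chr7:97872359-97872658, minus strand: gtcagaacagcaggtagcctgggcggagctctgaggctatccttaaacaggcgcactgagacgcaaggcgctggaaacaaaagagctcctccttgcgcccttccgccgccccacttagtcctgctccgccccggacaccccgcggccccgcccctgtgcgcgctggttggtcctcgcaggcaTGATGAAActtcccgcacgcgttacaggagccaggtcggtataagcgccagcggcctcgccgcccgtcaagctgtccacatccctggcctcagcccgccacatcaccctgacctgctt
ATF3, chr1:212565157-212565456, plus strand: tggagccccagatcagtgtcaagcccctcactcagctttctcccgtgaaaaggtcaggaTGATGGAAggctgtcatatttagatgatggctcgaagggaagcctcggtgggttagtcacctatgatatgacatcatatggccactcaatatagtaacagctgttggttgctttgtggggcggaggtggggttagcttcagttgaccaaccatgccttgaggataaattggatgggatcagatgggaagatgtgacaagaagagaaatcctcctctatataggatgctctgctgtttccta
CHAC1, chr15:40953221-40953520, plus strand: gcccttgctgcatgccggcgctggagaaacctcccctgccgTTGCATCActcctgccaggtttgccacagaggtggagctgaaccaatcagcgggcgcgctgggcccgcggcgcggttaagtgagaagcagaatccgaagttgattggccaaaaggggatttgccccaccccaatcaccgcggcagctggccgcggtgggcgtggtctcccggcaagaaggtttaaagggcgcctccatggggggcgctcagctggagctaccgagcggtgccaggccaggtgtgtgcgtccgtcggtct
The ASNS match, TGATGAAA, lay 68 to 61 bases before the start, and the ATF3 match, TGATGGAA, 191 to 184 bases before it. CHAC1 held the reverse complement, TTGCATCA, 209 to 202 bases before its start. The cyclic AMP response element TGACGTCA was in none of the 16 windows (1.85% of all), and the antioxidant response element core TGACNNNGC was in the 3 overlapping TRIB3 windows alone (13.3% of all). Such a match is a description of the letters, and its absence says only that they are not in this window.

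Each library held 12331501 to 21414162 reads on coding genes, of which 826620 to 2094217 were T>C reads. Of all reads on coding genes, 9.64% ± 0.217 carried T>C in WX-02-23, 9.10% ± 0.277 in WX-02-43, 5.44% ± 0.191 in PladB and 9.45% ± 0.430 in DMSO (SD, n = 3 each). All 10 luminal prostate markers examined averaged at least 10 CPM (counts scaled to the same library size). Of 16 markers of other cell types, only SYP did (28.0 CPM), and 7 had no read in any library, among them TP63, KRT5 and CD3E. The summed luminal markers ran from 2530 to 2881 CPM in WX-02-23, 2715 to 2848 in WX-02-43, 3657 to 3874 in PladB and 3202 to 3440 in DMSO. Their part in the results was not tested. In these bulk samples fewer cells of a type and less RNA per cell cannot be told apart. The labels name no batch.

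The members differed widely in how much of their RNA was new, already in DMSO. Over the 7877 genes with at least 200 reads in every DMSO library, the median labelled share was 8.71%. ATF3, an early stress-induced repressor of the ATF family, had a share of 63.7% ± 1.58 and ranked 51 from the highest, and DDIT4 (REDD1), an inhibitor of mTORC1, had 62.0% ± 9.01 and ranked 62 (SD, n = 3). CHAC1, which degrades glutathione, had 54.1% ± 8.93 and ranked 105.
DDIT3 (CHOP), a pro-apoptotic C/EBP family factor, had 39.7% ± 5.19, SESN2, a sestrin that restrains mTORC1 and acts in redox balance, 36.3% ± 8.92, and TRIB3, a pseudokinase that feeds back on ATF4, 28.0% ± 3.37. These 6 genes had larger labelled shares than at least 92.8% of the genes ranked. ATF4 stood at 15.4% ± 2.70. The amino acid enzymes stood lowest, with PSAT1 at 9.08% ± 1.30, ASNS at 8.80% ± 1.22 and PHGDH at 3.24% ± 0.569. PSAT1 and PHGDH act in serine synthesis and ASNS makes asparagine. In the order of these means, the libraries of neighbours overlapped from ATF3 through DDIT4, CHAC1, DDIT3 and SESN2 to TRIB3, and for PSAT1 and ASNS. TRIB3 and ATF4, ATF4 and PSAT1, and ASNS and PHGDH did not overlap. The share depends on how many T positions the reads cover as well as on how new the RNA is. The ATF4 interval had 28 T positions in 84 bases, and the ATF3 interval 443 in 1672 bases.

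**Figure D1:**
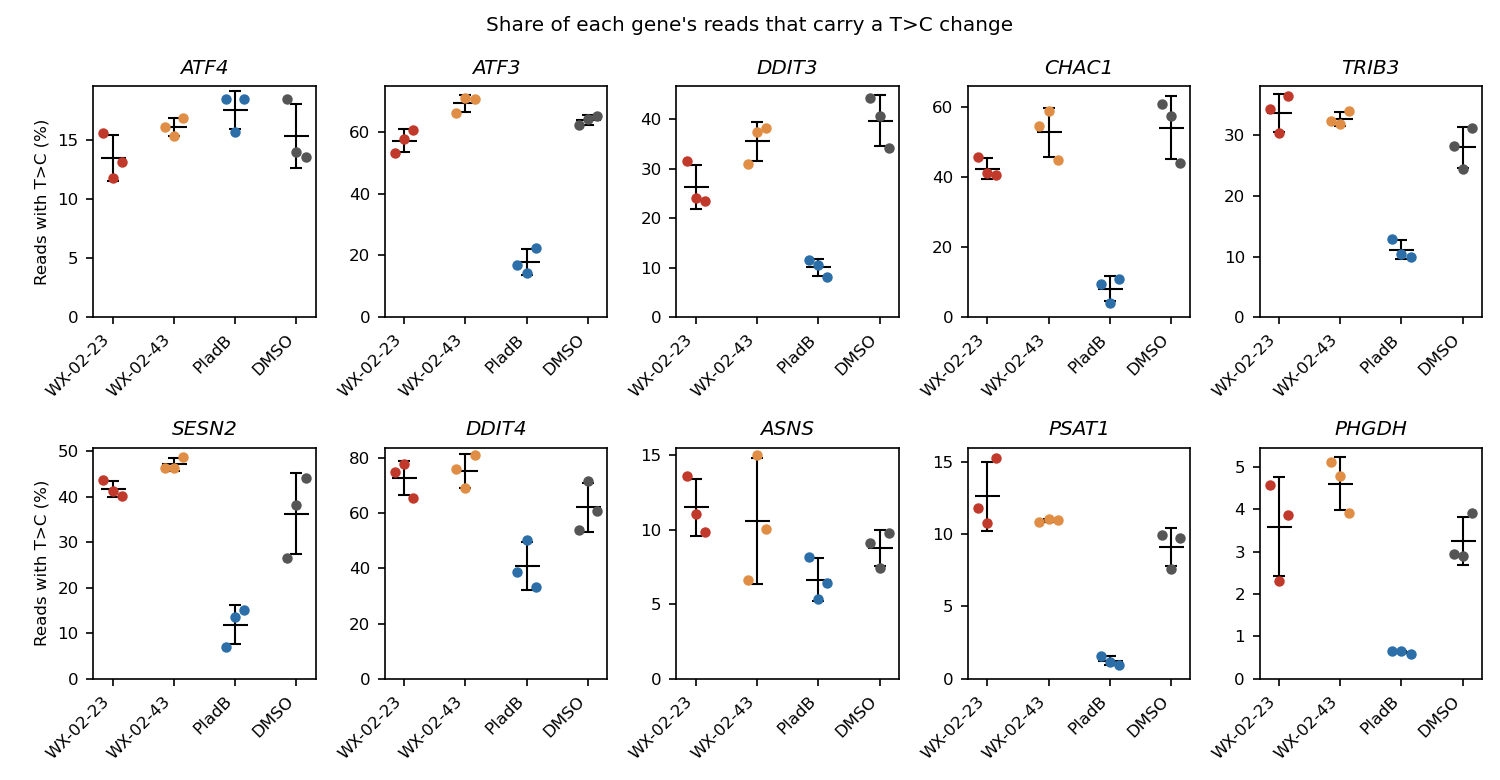
Share of each member's reads that carry a T>C change (%, vertical axis, own scale per gene) in every library of the 4 groups; points are libraries, and bars the mean ± SD of 3. In PladB the share was below every DMSO library for 8 of the 10 genes, and overlapped DMSO for ATF4 and ASNS.

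The comparison of WX-02-23 with DMSO shows what this stereoprobe changes in cells with the edited SF3B1. Newly made RNA of DDIT4 was 3.40-fold higher and that of SESN2 2.09-fold higher in WX-02-23. These were the 2 of 10 members called, both higher, where 0.168% of 10722 genes were called higher. In all reads 7 of the 10 were called higher, where 0.425% of 13178 genes were: DDIT4, CHAC1, SESN2, ATF3, DDIT3, TRIB3 and ATF4. The 3 enzymes of amino acid synthesis were not called on either measure. No member was called lower by edgeR or by DESeq2, where 0.0560% of genes in T>C reads and 0.273% in all reads were with edgeR, and 0 members were lower at an unadjusted p under 0.05.

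Among the transcription factors, ATF4 had 644, 673 and 603 CPM of all reads in the WX-02-23 libraries, against 467, 432 and 484 CPM in DMSO. All 3 WX-02-23 libraries lay above all 3 DMSO libraries, and the log2 change was 0.47 (SE 0.10, adjusted p = 0.00530). Its T>C reads overlapped between groups, with a log2 change of 0.29 (95% interval -0.06 to 0.64). ATF3 had 99.5, 115 and 84.5 CPM of all reads in WX-02-23, against 37.6, 55.9 and 69.3 CPM in DMSO. The groups did not overlap, and the log2 change was 0.88 (SE 0.19, adjusted p = 0.00987). T>C reads of ATF3 also did not overlap, at 553, 716 and 531 CPM in WX-02-23 and 239, 391 and 472 CPM in DMSO, but the change of 0.71 (SE 0.26) was not called (adjusted p = 0.795). DDIT3 had 112, 101 and 131 CPM of all reads in WX-02-23, against 60.7, 85.5 and 81.1 CPM in DMSO, with no overlap. Its log2 change was 0.60 in all reads (SE 0.14, adjusted p = 0.0260) and 0.01 in T>C reads (95% interval -0.49 to 0.52).
These 3 calls rested in part on single libraries. ATF4 had an adjusted p of 0.0678 without WX-02-23 replicate 2. ATF3 had 0.111 with DMSO replicate 1 left out and 0.116 with WX-02-23 replicate 2 left out. DDIT3 had 0.207 when DMSO replicate 1 was left out, and 0.0604 and 0.233 when WX-02-23 replicate 1 or 3 was. The DDIT3 call was also lost with plain sums over intervals (0.0632) and in a fit to the WX-02-23 and DMSO libraries alone (0.114).

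Of the stress effectors, DDIT4 had 479, 613 and 465 CPM of T>C reads in WX-02-23, against 153, 148 and 156 CPM in DMSO. Every WX-02-23 library was thus far above the narrow DMSO range, and the log2 change, 1.76 (SE 0.28), had an adjusted p of 0.000243. All reads of DDIT4 were 61.1, 73.1 and 68.3 CPM in WX-02-23 and 27.9, 19.0 and 24.6 CPM in DMSO, a 2.83-fold change (SE 0.22 on the log2 scale, adjusted p = 4.81e-05). Both calls held without any 1 of the 6 libraries. SESN2 had 739, 801 and 714 CPM of T>C reads in WX-02-23, against 229, 399.5 and 451 CPM in DMSO. The groups did not overlap, and DMSO replicate 1 was the low library. The log2 change was 1.06 (SE 0.24, adjusted p = 0.0324). That call was lost in 5 of the 6 fits without 1 library, with adjusted p of 0.433 and 0.0812 without DMSO replicates 1 and 2, and 0.108, 0.185 and 0.0768 without WX-02-23 replicates 1, 2 and 3. It was also lost with plain sums over intervals (0.189) and in the fit to these 2 groups alone (0.0654). In all reads SESN2 stood at 162, 179 and 171 CPM in WX-02-23 and 84.0, 96.0 and 97.6 CPM in DMSO. That change, 0.88 on the log2 scale (SE 0.14, adjusted p = 0.000127), held in all 6 such fits.

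CHAC1 had 95.1, 75.4 and 119 CPM of all reads in WX-02-23, against 28.1, 49.1 and 38.0 CPM in DMSO. The groups did not overlap, the log2 change was 1.33 (SE 0.20, adjusted p = 4.81e-05), and the call held in all 6 fits without 1 library. Its T>C reads, 455, 335 and 500.1 CPM in WX-02-23 and 176, 308 and 175 CPM in DMSO, did not overlap either. That change of 0.97 (SE 0.31) had an adjusted p of 0.483 with edgeR and 0.0339 with DESeq2. TRIB3 had 101, 150.4 and 135 CPM of all reads in WX-02-23 and 86.3, 87.7 and 87.3 CPM in DMSO. Its groups did not overlap, and the log2 change was 0.56 (SE 0.14, adjusted p = 0.0451). The TRIB3 call was lost in 5 of 6 fits, with adjusted p of 0.119, 0.0902 and 0.107 without DMSO replicates 1, 2 and 3, and 0.359 and 0.200 without WX-02-23 replicates 2 and 3. Plain sums over intervals gave 0.0846 for TRIB3, and the fit to these 2 groups alone 0.123. In T>C reads TRIB3 had a log2 change of 0.82 (SE 0.24), with an adjusted p of 0.328 with edgeR and 0.00210 with DESeq2.

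**Figure D2:**
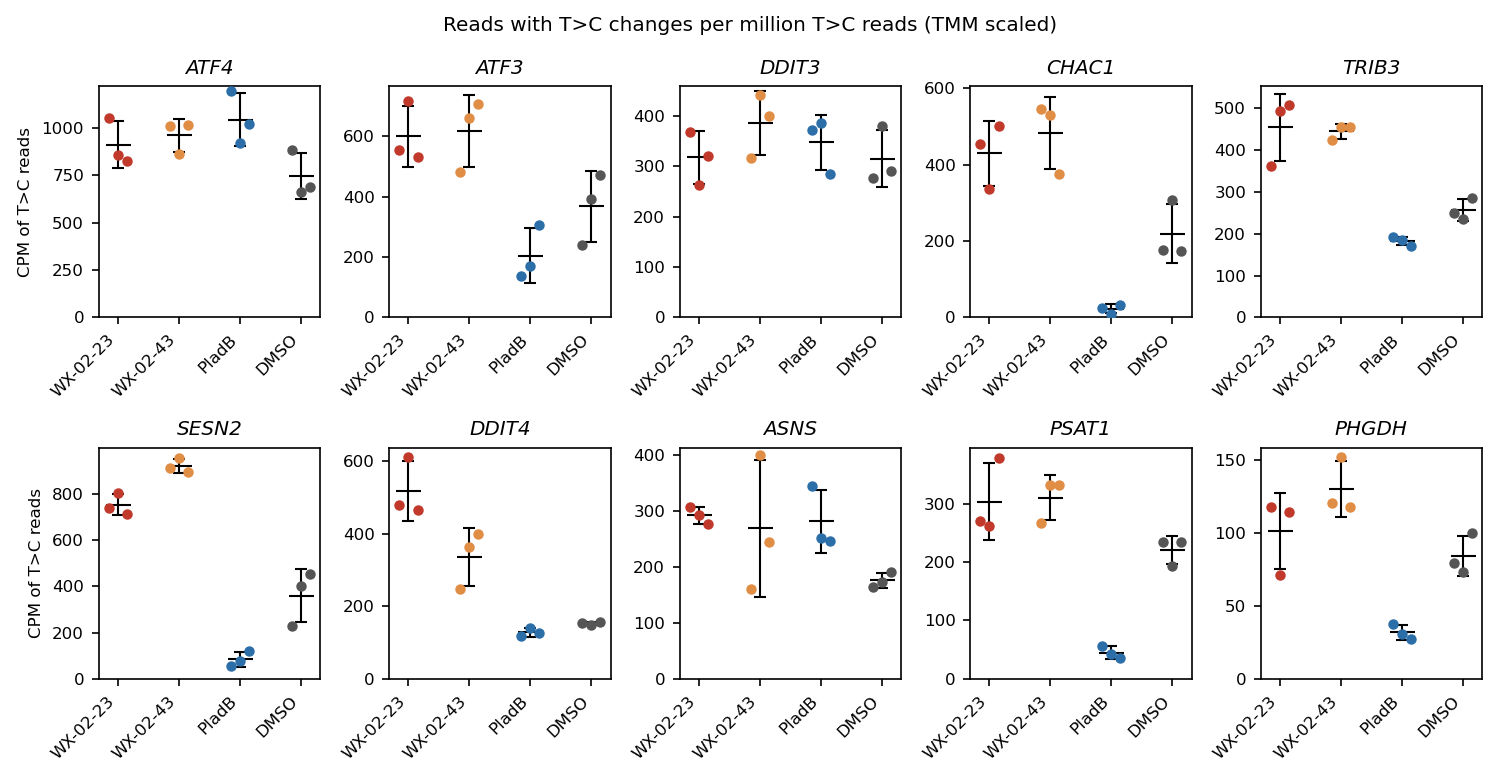
T>C reads (CPM of all T>C reads, TMM scaled, vertical axis from 0, own scale per gene) for the 10 members in every library; points are libraries, and bars the mean ± SD of 3. DDIT4 stood at 465 to 613 CPM in WX-02-23 and at 148 to 156 in DMSO, and CHAC1 at 9.36 to 33.2 in PladB and at 175 to 308 in DMSO.

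For the amino acid enzymes WX-02-23 gave log2 changes in all reads of 0.35 for ASNS (95% interval 0.11 to 0.58, adjusted p = 0.215), -0.02 for PSAT1 (-0.23 to 0.19) and 0.14 for PHGDH (-0.09 to 0.37). Changes in T>C reads were 0.73, 0.46 and 0.27, and none was called. ASNS T>C reads were 307, 293 and 276 CPM in WX-02-23 and 165, 172 and 191 CPM in DMSO, with no overlap. Over the 10 members the median log2 change was 0.72 in T>C reads and 0.58 in all reads, beside medians of 0.00 over all genes tested on both measures. WX-02-23 lay above DMSO without overlap for 7 members in T>C reads and for 8 in all reads. Over all genes tested this held for 6.23% in T>C reads and 6.89% in all reads.

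Other genes of the pathway were taken from lists, which were also chosen with earlier results of these data known. None of 23 genes for eIF2alpha kinases, phosphatase subunits, eIF2 and eIF2B was called in WX-02-23 on either measure by edgeR or DESeq2. At an unadjusted p under 0.05 (edgeR), 2 were lower in all reads and 0 in T>C reads, and 0 were higher on either. Of 34 other genes known as ATF4 targets, 4 were called higher in all reads and 1 lower, with a median log2 change of 0.18. DESeq2 called 5 higher and 1 lower, and 11 were higher and 1 lower at an unadjusted p under 0.05 (edgeR). GDF15, a stress cytokine, averaged 1033 ± 82.4 CPM in WX-02-23 and 388 ± 21.5 CPM in DMSO, a log2 change of 1.41 (SE 0.09, adjusted p = 2.14e-15). The amino acid transporter SLC38A2 rose by 0.51 on the log2 scale (adjusted p = 0.00296). STC2, a secreted glycoprotein, rose by 1.16 (adjusted p = 0.0255), a call that held in 3 of the 6 fits without 1 library (adjusted p up to 0.180, without DMSO replicate 1). The cystine transporter SLC7A11 rose by 0.54 (adjusted p = 0.0378), called in 1 of those 6 fits (up to 0.205, without DMSO replicate 3). Of the other serine, glycine and one-carbon genes, 0 of 14 were called in all reads, with 1 higher and 2 lower at an unadjusted p under 0.05. Of other amino acid synthesis genes 0 of 16 were called, with 1 higher and 0 lower at that p, and DESeq2 called none of either list.
The ATF6 and XBP1 arms of the unfolded protein response, which raise chaperones of the endoplasmic reticulum, had 0 of 23 genes called higher in all reads by edgeR or DESeq2, with 1 at an unadjusted p under 0.05. The 2 called lower were the chaperones PDIA6 and HSP90B1, each by 0.38 on the log2 scale (adjusted p = 0.0268 and 0.0272), and DESeq2 called 1 lower. Without 1 library PDIA6 was called in 2 of 6 fits (adjusted p up to 0.207, without WX-02-23 replicate 2) and HSP90B1 in 3 of 6 (up to 0.382, without DMSO replicate 2). NRF2 target genes, of the electrophile and oxidant response, had 5 of 21 called higher in all reads, and 3 by DESeq2. At an unadjusted p under 0.05 (edgeR), 9 were higher and 0 lower in all reads. SLC7A11, given above with the ATF4 targets, is on this list too and was 1 of the 5. Among these, HMOX1 (heme oxygenase) averaged 33.5 ± 3.10 CPM in WX-02-23 and 0.858 ± 0.846 CPM in DMSO (adjusted p = 2.27e-07), TXNRD1 (thioredoxin reductase) averaged 339 ± 20.5 CPM in WX-02-23 and 149 ± 15.8 CPM in DMSO, and SRXN1 (sulfiredoxin) 195 ± 15.4 and 122 ± 8.03 CPM in the same 2 groups (SD, n = 3). In T>C reads 5 of 18 NRF2 targets were called higher. TXNRD1 had 1471 ± 101 CPM of T>C reads in WX-02-23 and 243 ± 44.4 CPM in DMSO. Of 14 bZIP partners of ATF4 and DDIT3, 5 were higher and 0 lower in all reads at an unadjusted p under 0.05. DESeq2 called 2 of them higher in T>C reads, where edgeR called 0 of 13. In all reads edgeR called 1, JUN, an AP-1 subunit, at 199.5 ± 14.6 CPM in WX-02-23 and 143 ± 7.37 CPM in DMSO. Its log2 change of 0.48 (SE 0.11, adjusted p = 0.0229) was called in 3 of 6 fits without 1 library (adjusted p up to 0.125, without WX-02-23 replicate 1).
None of 28 mTORC1, AMPK and sestrin pathway genes was called in all reads by edgeR or DESeq2, with 2 higher and 0 lower at an unadjusted p under 0.05.

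WX-02-43, at the same dose and time, was compared with the same DMSO libraries. SESN2 and CHAC1 were higher in WX-02-43. In all reads these were the 2 members called, both higher, where 0.0986% of 13178 genes were called higher, and in T>C reads SESN2 alone was called, where 0.0466% of 10722 were. SESN2 had 909.5, 954 and 893 CPM of T>C reads in WX-02-43, against 229, 399.5 and 451 CPM in DMSO, so the groups were well apart. Its log2 change was 1.35 (SE 0.24, adjusted p = 0.00197), and the adjusted p was 0.0511 without DMSO replicate 1. All reads of SESN2 were 185, 181 and 162 CPM in WX-02-43 and 84.0, 96.0 and 97.6 CPM in DMSO, a log2 change of 0.93 (SE 0.14, adjusted p = 9.63e-05). CHAC1 had 94.3, 79.2 and 73.9 CPM of all reads in WX-02-43 and 28.1, 49.1 and 38.0 CPM in DMSO, with no overlap. The log2 change of CHAC1 was 1.10 in all reads (SE 0.20, adjusted p = 0.00220) and 1.14 in T>C reads (SE 0.31, adjusted p = 0.301 with edgeR and 0.00864 with DESeq2).

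DDIT4 T>C reads were 247, 363 and 398 CPM in WX-02-43 and 153, 148 and 156 CPM in DMSO. The groups did not overlap, and the change of 1.14 (SE 0.27) had an adjusted p of 0.110 with edgeR and 0.000287 with DESeq2. TRIB3 T>C reads, at 425, 455 and 455 CPM in WX-02-43 and 250.1, 234 and 285 CPM in DMSO, were also apart. The TRIB3 change of 0.79 (SE 0.24) had an adjusted p of 0.530 with edgeR and 0.00585 with DESeq2. In all reads the log2 change was 0.22 for ATF4 (95% interval 0.03 to 0.42), 0.56 for ATF3 (0.18 to 0.93), 0.36 for DDIT3 (0.08 to 0.65) and 0.75 for DDIT4 (0.31 to 1.20), none called. The enzymes ASNS, PSAT1 and PHGDH had log2 changes of 0.24, 0.14 and 0.05 in all reads, also not called. The median over members was 0.69 in T>C reads and 0.43 in all reads, beside 0.00 over all genes on both. WX-02-43 lay above DMSO without overlap for 7 members in T>C reads and for 8 in all reads, beside 6.57% and 6.25% of all genes. Of the 34 other ATF4 targets, 2 were called higher in all reads, GDF15 with a log2 change of 1.03 (SE 0.09) and SLC7A11 with 0.59 (SE 0.13). The SLC7A11 call held in 1 of 6 fits without 1 library (adjusted p up to 0.244, without DMSO replicate 3). None was called lower by edgeR. With edgeR 6 were higher and 1 lower at an unadjusted p under 0.05, and DESeq2 called 3 higher and 1 lower. Of the 14 bZIP partners, 4 were higher and 0 lower in all reads at an unadjusted p under 0.05. JUN was the 1 partner called in all reads here too. It averaged 236 ± 16.99 CPM of all reads in WX-02-43 and 143 ± 7.37 CPM in DMSO, a rise of 0.72 on the log2 scale (SE 0.11, adjusted p = 0.000148). In all reads 2 of 21 NRF2 targets were called higher. HMOX1, 1 of them, was at 7.70 ± 3.05 CPM in WX-02-43 and 0.858 ± 0.846 CPM in DMSO. The other was SLC7A11, which is on both lists, so its 1 call is counted in each. T>C reads gave 2 of 18 NRF2 targets called higher. TXNRD1, 1 of these, had 664 ± 65.9 CPM of T>C reads in WX-02-43 and 243 ± 44.4 CPM in DMSO. Its log2 change was 1.45 (SE 0.23, adjusted p = 0.000558).

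**Figure D3:**
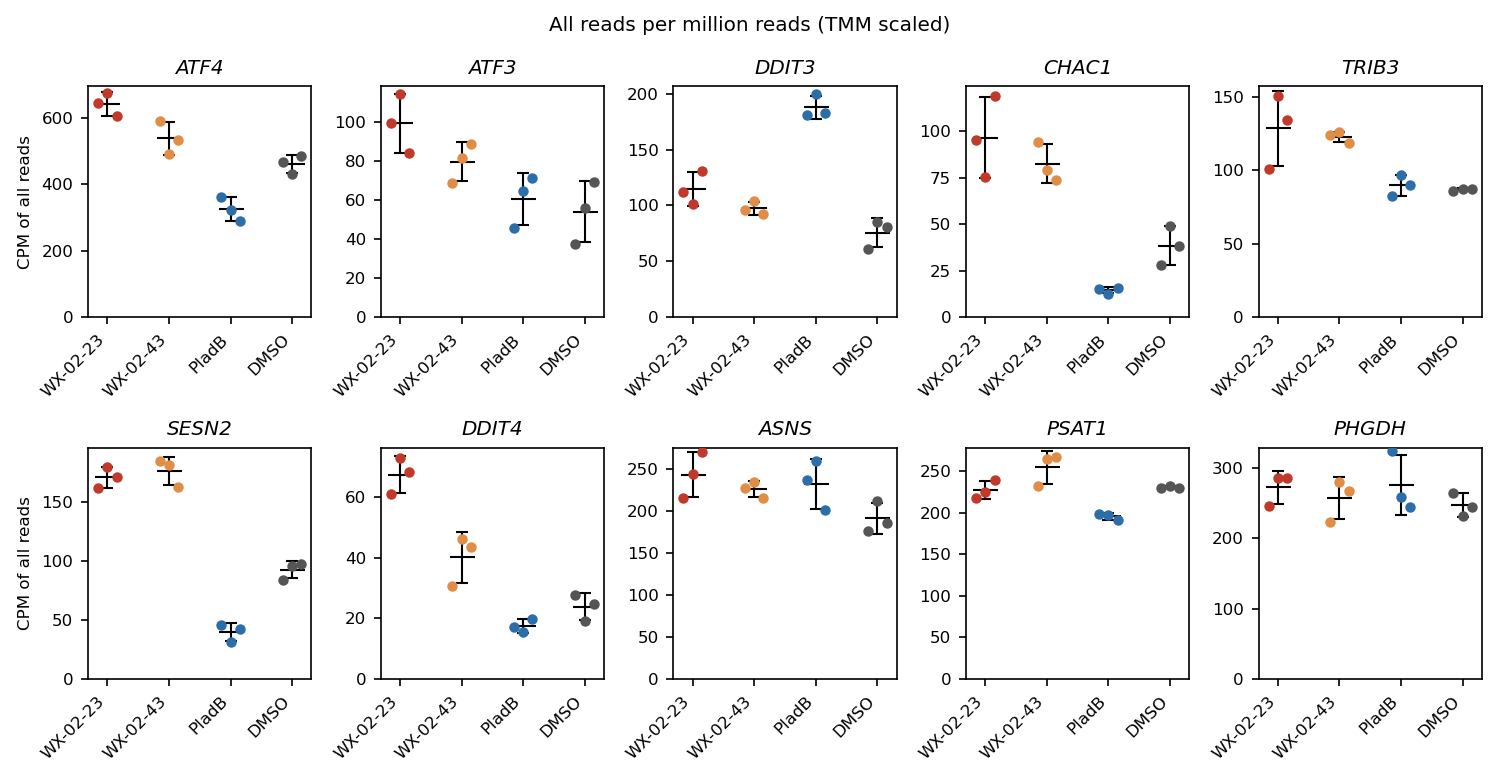
All reads (CPM, TMM scaled, vertical axis from 0, own scale per gene) for the 10 members in every library; points are libraries, and bars the mean ± SD of 3. SESN2 stood at 162 to 179 CPM in WX-02-23, 162 to 185 in WX-02-43, 31.4 to 45.5 in PladB and 84.0 to 97.6 in DMSO.

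WX-02-23 and WX-02-43 shared dose, time and controls, and were compared directly. No member was called between them in T>C reads, where 0.0466% of 10722 genes were called, or in all reads, where 0.152% of 13178 were. DESeq2 called none of the members either. At an unadjusted p under 0.05 (edgeR), 1 member was higher in WX-02-23 in T>C reads and 2 in all reads, and 0 were lower. That p was seen for 306 genes in T>C reads and 727 in all reads. DDIT4 was the member with the largest difference. It had 61.1, 73.1 and 68.3 CPM of all reads in WX-02-23 and 30.7, 46.3 and 43.6 CPM in WX-02-43, with no overlap. That log2 difference of 0.75 had a 95% interval of 0.31 to 1.19 and an adjusted p of 0.307, and in T>C reads it was 0.63 (0.09 to 1.17). ATF4 also did not overlap in all reads, with a difference of 0.25 (0.06 to 0.45). In T>C reads SESN2 lay lower in WX-02-23 than in WX-02-43 without overlap, by a log2 difference of -0.29 (-0.76 to 0.18), and PHGDH by -0.36 (-1.39 to 0.66). CHAC1 differed by -0.17 in T>C reads (-0.78 to 0.45) and 0.23 in all reads (-0.16 to 0.62). A p that misses the threshold does not show that the compounds act alike, and the intervals for CHAC1 leave room for differences of over 0.6 on the log2 scale.
Both stereoprobes were compared with the same DMSO libraries, so DDIT3 in all reads, at 0.60 for WX-02-23 and 0.36 for WX-02-43, is given side by side and not as 2 independent results. Called in 1 comparison and not in the other, DDIT3 differed between the stereoprobes by 0.23 (-0.05 to 0.52).

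**Figure D4:**
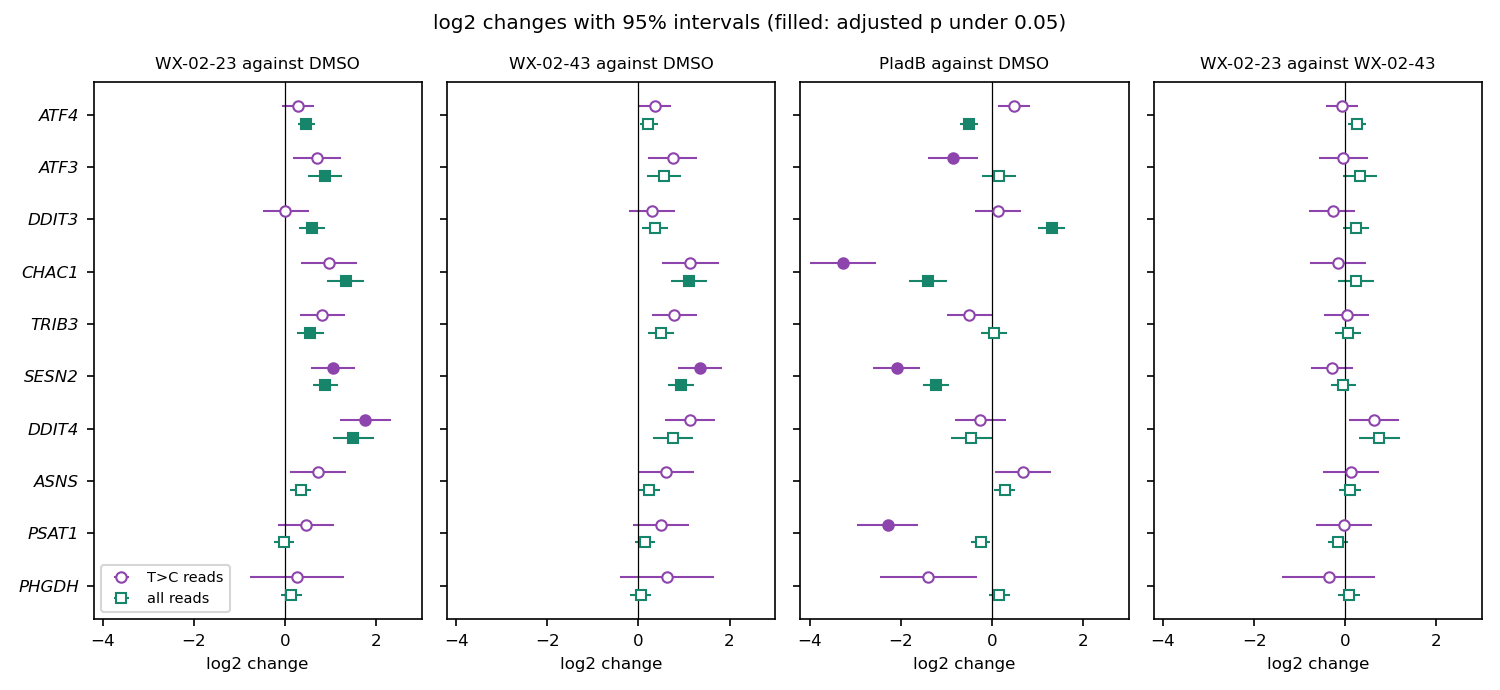
log2 changes (horizontal axis) of the 10 members in the 4 comparisons, with 95% intervals from the edgeR fit; circles are T>C reads, squares all reads, and filled symbols have an adjusted p under 0.05. Under PladB the changes of CHAC1, PSAT1 and SESN2 in T>C reads were -3.26, -2.28 and -2.09, and that of DDIT3 in all reads 1.31. In T>C reads scaled to all reads, the PladB changes of ATF4, DDIT3 and ASNS were below 0 (-0.31, -0.65 and -0.12), and with library totals in place of TMM those of DDIT3 in T>C reads and of ATF3, TRIB3 and PHGDH in all reads were (-0.12, -0.09, -0.21 and -0.10).

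PladB, at 10 nM, gave another pattern, and since its dose differs from that of the stereoprobes no test sets it against them. Newly made RNA of CHAC1, SESN2, PSAT1 and ATF3 fell, while no member was called higher in T>C reads by edgeR, 1 by DESeq2 and 2 at an unadjusted p under 0.05. In all reads CHAC1, SESN2 and ATF4 fell and DDIT3 rose. In PladB, 4 of the 10 members were called lower in T>C reads, where 5.91% of 10722 genes were, and 0 higher, where 4.72% were. In all reads 3 were called lower, where 16.3% of 13178 genes were, and 1 higher, where 13.9% were. The median over members in T>C reads was -0.67, beside -0.36 over all genes, and in all reads -0.10 beside -0.07.

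CHAC1 had 25.8, 9.36 and 33.2 CPM of T>C reads in PladB, against 176, 308 and 175 CPM in DMSO. The ranges were far apart, and the log2 change was -3.26 (SE 0.36, adjusted p = 1.10e-08). The T>C counts behind it are small, down to 7 in 1 PladB library. All reads of CHAC1 were 15.3, 12.6 and 15.8 CPM in PladB and 28.1, 49.1 and 38.0 CPM in DMSO, and the log2 change was -1.40 (SE 0.20), at an adjusted p of 9.94e-07. SESN2 had 56.5, 77.5 and 120 CPM of T>C reads in PladB, against 229, 399.5 and 451 CPM in DMSO. It too did not overlap, with a change of -2.09 (SE 0.25, adjusted p = 9.01e-08), and all reads changed by -1.22 (SE 0.14, adjusted p = 1.19e-08). PSAT1 had 56.5, 42.8 and 36.0 CPM of T>C reads in PladB and 235, 192 and 234 CPM in DMSO, a log2 change of -2.28 (SE 0.33, adjusted p = 3.73e-06). Its all reads, at 199, 197 and 191 CPM in PladB and 230.0, 232 and 230.3 CPM in DMSO, were also apart, but the change of -0.24 (SE 0.11) was not called (adjusted p = 0.0852). It was called by DESeq2 (-0.22, adjusted p = 0.0486) and with library totals in place of TMM (-0.49, adjusted p = 0.000281). The calls of CHAC1, SESN2 and PSAT1 held in all 6 fits without 1 library.
ATF3 had 138, 170 and 307 CPM of T>C reads in PladB and 239, 391 and 472 CPM in DMSO. These groups overlapped, and the change of -0.85 (SE 0.27, adjusted p = 0.0331) was lost without DMSO replicate 2 (adjusted p = 0.0879), DMSO replicate 3 (0.189), PladB replicate 1 (0.163) or PladB replicate 2 (0.0797). It was also lost in a fit to the PladB and DMSO libraries alone (0.130) and in plain sums over intervals (0.0539).

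DDIT3 and ATF4 were called by edgeR in all reads but not in T>C reads. DDIT3 had 181, 200 and 183 CPM of all reads in PladB, against 60.7, 85.5 and 81.1 CPM in DMSO. Every PladB library was above every DMSO library, by 2.48-fold on average, or 1.31 on the log2 scale (SE 0.14, adjusted p = 3.04e-09). Its T>C reads did not differ in this way, at 373, 385 and 284 CPM in PladB and 276, 379 and 290 CPM in DMSO, and their log2 change was 0.14 (-0.37 to 0.65), which became -0.65 when T>C reads were scaled to all reads and -0.12 with library totals in place of TMM. ATF4 had 362, 322 and 289 CPM of all reads in PladB, against 467, 432 and 484 CPM in DMSO, a log2 change of -0.51 (SE 0.10, adjusted p = 6.57e-05) with no overlap. ATF4 T>C reads, in contrast, were 1193, 918 and 1020 CPM in PladB and 884, 662 and 690 CPM in DMSO. They did not overlap either, and the change of 0.49 (SE 0.17, adjusted p = 0.0629) was called without DMSO replicate 1 (0.0358) or PladB replicate 2 (0.0401), with the replicate number as a block (0.0493) and by DESeq2 (0.0300), and was -0.31 with T>C reads scaled to all reads.
DDIT3 shares its locus with MARS, whose 3′ UTR interval on the other strand lay for 68 of its 74 bases inside that of DDIT3. MARS had 901 to 1466 reads per PladB library, where DDIT3 had 2511 to 3243, and 1485 to 1627 reads per DMSO library, more than DDIT3 in each. The 2 genes thus had separate counts, and whether some reads from 1 strand were counted for the other gene was not tested.

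TRIB3, DDIT4, ASNS and PHGDH were not called in PladB on either measure as scaled here. PHGDH T>C reads were 37.7, 30.7 and 27.7 CPM in PladB and 79.5, 73.5 and 99.7 CPM in DMSO, with no overlap and a change of -1.39 (SE 0.53, adjusted p = 0.0876). That change was called by DESeq2 (adjusted p = 0.00360) and with library totals in place of TMM (-1.65, adjusted p = 0.0347). TRIB3 T>C reads, at 191, 185 and 172 CPM in PladB and 250.1, 234 and 285 CPM in DMSO, were apart as well, with a log2 change of -0.49 (SE 0.25), called by DESeq2 (adjusted p = 0.0416) and with library totals (-0.75, adjusted p = 0.0397). For DDIT4 it was -0.25 in T>C reads (-0.81 to 0.30) and -0.45 in all reads (-0.90 to 0.00), where library totals gave -0.71 (adjusted p = 0.0138). For ASNS it was 0.68 in T>C reads (0.06 to 1.29, -0.12 when scaled to all reads) and 0.28 in all reads (0.05 to 0.51, adjusted p = 0.0622). The ASNS change in all reads was called without DMSO replicate 2 (adjusted p = 0.0223) or PladB replicate 3 (0.0245), and by DESeq2 (0.0438).
PladB lowered the share of T>C reads in the whole library, so the scaling matters. With T>C reads scaled to all reads, the median over all genes tested moved to -1.15, and 7 members were called lower. Those added were PHGDH at -2.18 (adjusted p = 0.00283), TRIB3 at -1.29 (adjusted p = 0.000252) and DDIT4 at -1.05 (adjusted p = 0.00467). On that scale 85 genes were called higher and 1749 lower, beside 506 higher and 634 lower as scaled here. In all reads, library totals in place of TMM gave 727 higher and 3294 lower with a median of -0.32, beside 1828 higher and 2143 lower.

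The labelled share shows the same genes in another way, since it sets a gene's new reads against its own total. In PladB it was below DMSO without overlap for 8 of the 10 members, where 34.2% of 10173 genes were. The exact permutation p was 0.1 for each, the smallest that 3 libraries against 3 allow, and 0.211 after adjustment over 40 tests. The ratio of the share in PladB to that in DMSO ran from 0.139 for PSAT1 to 1.14 for ATF4, beside 0.576 over all coding reads. CHAC1 had 9.46%, 4.09% and 11.1% in PladB, against 61.0%, 57.4% and 44.0% in DMSO, a ratio of 0.151. ATF3 had 16.8%, 14.5% and 22.5% in PladB and 62.0%, 64.0% and 65.2% in DMSO. All reads of ATF3 had a log2 change of 0.16 (95% interval -0.22 to 0.54), which was -0.09 with library totals in place of TMM. Its reads without T>C averaged 49.7 ± 9.90 CPM in PladB and 19.5 ± 4.95 in DMSO (SD, n = 3). DDIT3 had 11.6%, 10.6% and 8.16% in PladB and 44.4%, 40.6% and 34.2% in DMSO. Its reads without T>C averaged 169 ± 9.51 CPM in PladB and 46.0 ± 10.7 in DMSO.
The reads of PSAT1 and PHGDH in PladB were nearly all without T>C. PSAT1 had a share of 1.26% ± 0.306 in PladB and 9.08% ± 1.30 in DMSO, with reads without T>C at 193 ± 3.80 CPM in PladB and 209.9 ± 4.09 CPM in DMSO. PHGDH had a share of 0.635% ± 0.0331 in PladB and 3.24% ± 0.569 in DMSO. Libraries made without 4-thiouridine were not analysed here, and the level that sequencing errors alone would give was not subtracted. ATF4 and ASNS, in contrast, had overlapping groups, ATF4 at 18.5%, 15.7% and 18.6% in PladB and 18.5%, 14.0% and 13.6% in DMSO, and ASNS at 6.66% ± 1.43 and 8.80% ± 1.22 in the same 2 groups.

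**Figure D5:**
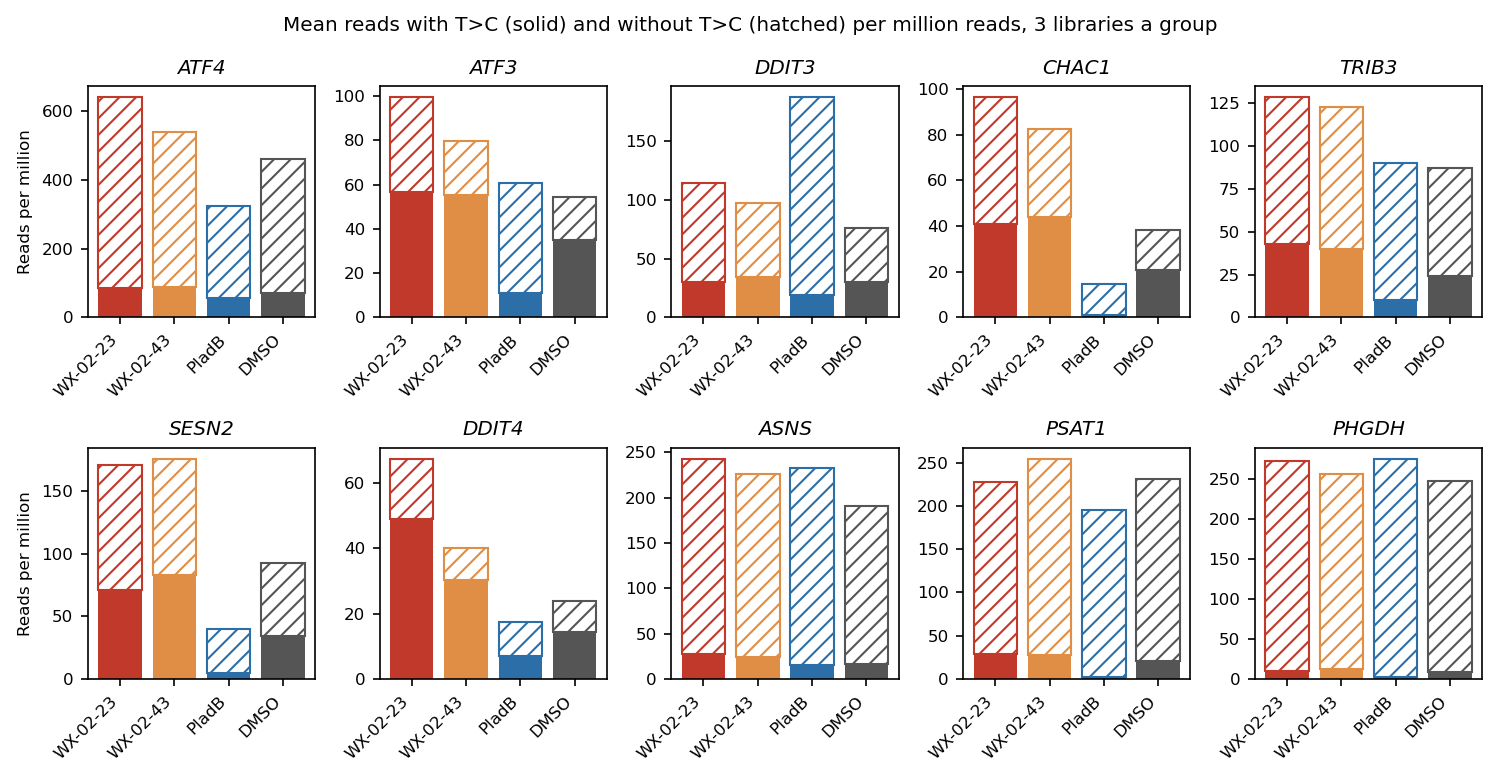
Mean reads (CPM of all reads, TMM scaled, vertical axis from 0, own scale per gene) that carry T>C (solid) and that do not (hatched), for 3 libraries a group. In DDIT3 the reads without T>C averaged 169 CPM in PladB and 46.0 in DMSO, and in SESN2 35.1 and 58.5 in the same 2 groups.

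The stereoprobes moved the labelled shares less. In WX-02-23, ATF3 (57.1% ± 3.72, against 63.7% ± 1.58 in DMSO) and DDIT3 (26.4% ± 4.45, against 39.7% ± 5.19) were lower without overlap, where 5.19% of 10448 genes were. ASNS (11.5% ± 1.93, against 8.80% ± 1.22 in DMSO) and PSAT1 (12.6% ± 2.36, against 9.08% ± 1.30) were higher, where 5.84% were. In WX-02-43, 5 members were higher than DMSO without overlap, ATF3, TRIB3, SESN2, PSAT1 and PHGDH, where 4.99% of 10491 genes were, and none was lower, where 6.28% were. SESN2 averaged 47.1% ± 1.38 in WX-02-43 and 36.3% ± 8.92 in DMSO. ATF3 at 57.1% ± 3.72 in WX-02-23 and 69.2% ± 2.67 in WX-02-43, and SESN2 at 41.7% ± 1.81 and 47.1% ± 1.38 in the same 2 groups, did not overlap between the stereoprobes, where 4.38% of 10512 genes were lower. None of these differences passed the exact permutation test after adjustment (adjusted p of 0.211 or more over 40 tests).

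The other genes of the pathway are given for PladB list by list, beside 13.9% of all 13178 genes called higher and 16.3% lower in all reads, and 4.72% of 10722 higher and 5.91% lower in T>C reads. Over all genes, library totals in place of TMM gave 727 higher and 3294 lower in all reads, and 310 and 885 in T>C reads. T>C reads scaled to all reads gave 85 higher and 1749 lower. List counts on those scales stand beside these counts. Differences between lists were not tested. Of 34 other ATF4 targets, 7 were called higher and 10 lower in all reads, and 1 higher and 10 lower in T>C reads. With library totals in place of TMM, 3 were called higher and 14 lower in all reads, and 0 and 13 in T>C reads. With T>C reads scaled to all reads, 0 were called higher and 20 lower in T>C reads. The transporter SLC38A2 averaged 131 ± 20.6 CPM in PladB and 475 ± 21.8 CPM in DMSO, a log2 change of -1.86 (SE 0.10, adjusted p = 3.06e-17), and SLC7A11 and SLC7A1 changed by -1.16 and -0.99. GDF15 changed by 0.49 (adjusted p = 2.15e-05). Of the other serine, glycine and one-carbon genes, 1 of 14 was called higher in all reads, SHMT2 at 0.59, and 5 lower, with SLC25A32 at -1.84 and SLC1A4 at -1.09 among them. The T>C reads of 1 of 13 were higher and of 5 lower, or 0 higher and 6 lower when scaled to all reads. Of other amino acid synthesis genes 2 of 16 were called higher and 2 lower in all reads. Their T>C reads gave 0 of 14 higher and 2 lower, or 0 and 5 when scaled to all reads.
The ATF6 and XBP1 list had 14 of 23 genes called higher in all reads and 3 lower, with a median of 0.40 beside -0.07 over all genes. With library totals in place of TMM it had 7 higher and 5 lower, and a median of 0.15 beside -0.32. SEC61B, a subunit of the translocon, changed by 0.79 (SE 0.12, adjusted p = 1.11e-06) and the co-chaperone SDF2L1 by 0.72 (SE 0.12, adjusted p = 5.71e-06), while SYVN1, a ubiquitin ligase of ER-associated degradation, changed by -1.68 (SE 0.21). XBP1 itself averaged 131 ± 11.4 CPM in PladB and 215 ± 38.2 CPM in DMSO, a change of -0.72 (SE 0.13, adjusted p = 2.14e-05). In T>C reads the list had 6 higher and 1 lower of 22, but 0 higher and 6 lower when T>C reads were scaled to all reads.
Among the bZIP partners of ATF4 and DDIT3, JUN averaged 329 ± 35.8 CPM of all reads in PladB and 143 ± 7.37 CPM in DMSO, a log2 change of 1.20 (SE 0.11, adjusted p = 8.09e-11). CREBZF changed by 2.19 (SE 0.17, adjusted p = 4.26e-13). CEBPG, a C/EBP partner of ATF4, averaged 97.3 ± 6.76 CPM in PladB and 194 ± 13.4 CPM in DMSO, and was called lower (adjusted p = 6.90e-09). In all, 4 of 14 partners were called higher and 3 lower, or 3 and 4 with library totals in place of TMM. The NRF2 list had 7 of 21 genes called higher and 6 lower in all reads, or 4 and 7 with library totals. SLC7A11, on this list and that of ATF4 targets, was among the lower ones. PRDX1, a peroxiredoxin, averaged 941 ± 49.99 CPM in PladB and 587 ± 33.7 CPM in DMSO, and GCLC, of glutathione synthesis, 39.2 ± 3.04 and 64.0 ± 7.76 CPM in the same 2 groups. Of the mTORC1, AMPK and sestrin genes 3 of 28 were called higher and 6 lower, or 2 and 9 with library totals, shares near those over all genes. ULK1, an autophagy kinase, was among the lower ones, at 24.4 ± 5.56 CPM in PladB and 85.6 ± 9.85 CPM in DMSO (SD, n = 3). Genes for eIF2alpha kinases, phosphatase subunits, eIF2 and eIF2B had 5 of 23 called higher and 1 lower in all reads, but 0 higher and 4 lower with library totals in place of TMM. In T>C reads the bZIP partners had 3 higher and 2 lower of 13, and the NRF2 list 1 and 4 of 18. The mTORC1 list had 2 and 1 of 27 there, and the eIF2alpha list 1 and 2 of 23. With T>C reads scaled to all reads these 4 lists had 2 and 3, 0 and 8, 0 and 3, and 0 and 4.

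The 3′ UTR intervals behind these counts are given in hg19. They lay at chromosome 22, 39918608 to 39918691 for ATF4, chromosome 1, 212792448 to 212794119 for ATF3 and chromosome 12, 57910371 to 57910591 for DDIT3. TRIB3 lay at chromosome 20, 377335 to 378203, CHAC1 at chromosome 15, 41247973 to 41248717, SESN2 at chromosome 1, 28607314 to 28609002, and DDIT4 at chromosome 10, 74034947 to 74035794. ASNS lay at chromosome 7, 97481429 to 97481570, PSAT1 at chromosome 9, 80944003 to 80945009, and PHGDH at chromosome 1, 120286664 to 120286849. Multimapping reads were 7.41% of those of PSAT1 and 3.76% of those of ASNS, and under 1% for the other members.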

How the data were processed

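RNA of 12 libraries was measured by SLAM-seq with a QuantSeq 3′ end kit, per the labels' protocols, although the labels call the molecule genomic DNA. Reads were mapped and counted with slamdunk 0.4.3, per the file headers, on hg19, per the submitters' processing notes. For each interval the authors deposited raw counts of reads and of T>C reads, CPM and a conversion rate, the fraction of covered T positions converted. The counts alone were tested. The deposited CPM gave the library totals (24670716 to 42190854), and conversion was used in an alternative. Intervals of 1 gene that overlap were counted once, by the interval with most reads. The 5460 noncoding intervals were left out, 23 pseudoautosomal Y intervals too, and 42 of 43 names turned into dates were restored by accession.

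Tests across genes used edgeR 4.0.16 under R 4.3.3 (quasi-likelihood, all 12 libraries, group as the only term, TMM, filterByExpr, Benjamini-Hochberg), and DESeq2 1.42.0 was an alternative. All 10 members passed the filter on low counts. CPM printed are TMM scaled. Labelled shares were compared by exact two-sided permutation tests. The scripts were tested on simulated data, with changes put into WX-02-23 and compared with DMSO. Of 100 simulated 2-fold changes, edgeR called 1% in T>C reads and 48% in all reads. Of 100 simulated 4-fold changes it called 23% in T>C reads and 79% in all reads. A gene not called may thus still have changed, above all in T>C reads. Other alternatives were another scaling, no filter, plain sums, no multimapping reads, only the groups compared, the replicate number as a block, and each library left out. Beside the members, at most 4 called genes per list and direction were named. Some named items are not reported here. The members and lists were chosen with earlier results of these data known. Reads carry no molecular identifiers. Promoters are from RefSeq, GRCh38.p14, and gene positions from the files.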

Additional observations from a re-analysis of the deposited data

How the results depend on the processing

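Depth limits the lowest values most, with 7 to 26 T>C reads for CHAC1, PHGDH and PSAT1 in their lowest PladB libraries. The replicate numbers did not pair the samples. Deviations of same-numbered libraries correlated between -0.0251 and 0.0258 in T>C reads and -0.0320 and 0.0399 in all reads over 18 pairs each, with 0 over 0.1. With the replicate block, the members called were 2, 1, 5 and 0 in T>C reads (WX-02-23, WX-02-43 and PladB against DMSO, and WX-02-23 against WX-02-43) and 7, 2, 4 and 0 in all reads.

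Members called in T>C reads were 2 for WX-02-23, and 4 with DESeq2, 1 with plain sums over intervals and 1 in a fit to the WX-02-23 and DMSO libraries alone. For WX-02-43 there was 1, and 4 with DESeq2. For PladB there were 4, and 7 with DESeq2 (1 higher, 6 lower) and 7 with T>C reads scaled to all reads. Genes called over the whole table with DESeq2 were 75, 53 and 1980 in these 3 comparisons in T>C reads, beside 24, 10 and 1140 with edgeR, and 26 between the stereoprobes beside 5. In all reads they were 161 and 55 for WX-02-23 and WX-02-43 beside 92 and 22, and 35 between the stereoprobes beside 20. Members whose shares did not overlap were 5 for WX-02-43, and 8 by percent of T positions converted. Between the stereoprobes there were 2, and 6 by T positions converted and 5 relative to the library's share. The same counts over all genes are not given for these alternatives. Over all coding genes, 0.889% to 0.955% of T positions were converted in the WX-02-43 libraries. It was 0.795% to 0.826% in WX-02-23 and 0.680% to 0.728% in DMSO, so the whole libraries differed in this measure. The cause of each difference between settings was not tested.

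With 1 library left out, the members called in T>C reads ran from 1 to 2 for WX-02-23, 0 to 1 for WX-02-43, 3 to 5 for PladB and 0 to 0 between the stereoprobes. In all reads they ran from 4 to 6, 2 to 2, 4 to 5 and 0 to 0. Shares without overlap ran from 4 to 7, 5 to 6, 8 to 9 and 2 to 6. With a library left out, the groups of any gene overlap less often. The same counts over all genes are not given for these fits.

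No called value of a member changed sign, and of 1120 values of members under all alternatives 31 turned direction, each of a member not called. For PladB with T>C reads scaled to all reads these were ATF4 at -0.31, DDIT3 at -0.65 and ASNS at -0.12. With library totals in place of TMM they were DDIT3 for PladB at -0.12 and for WX-02-23 at -0.00 in T>C reads, and ATF3 at -0.09, TRIB3 at -0.21 and PHGDH at -0.10 for PladB in all reads. Between the stereoprobes, T>C reads scaled to all reads gave ATF3 at 0.03 and PSAT1 at 0.05. With 1 library left out, T>C reads gave ranges of -0.11 to 0.17 for DDIT3 (WX-02-23), and between the stereoprobes -0.19 to 0.07 for ATF3, -0.06 to 0.17 for TRIB3, -0.14 to 0.53 for ASNS and -0.22 to 0.06 for PSAT1. All reads gave -0.06 to 0.01 for PSAT1 (WX-02-23), -0.02 to 0.14 for PHGDH (WX-02-43), -0.05 to 0.38 for ATF3 and -0.02 to 0.10 for TRIB3 (PladB), and between the stereoprobes -0.06 to 0.22 for TRIB3 and -0.01 to 0.16 for PHGDH.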
